A study of Mus musculus with 12 samples.

Results

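The genes described are those that break down stored triglyceride in fat cells and those through which catecholamines control that breakdown. They are Adrb3, Adrb1, Pde3b, Pnpla2, Pnpla3, Abhd5, G0s2, Lipe and Mgll, taken by gene symbol from a count table of 32238 genes, and all 9 passed the count filter and were tested with 20297 genes. The tissue was mouse gonadal white adipose tissue, the fat pad beside the gonads, profiled by RNA sequencing in 12 libraries. Mice were WT or had a knockout of Bnip3 limited to macrophages (MKO), where Bnip3 is a receptor for the removal of mitochondria by autophagy, and were fed a normal chow diet (NCD) or a high-fat diet (HFD) for 12 weeks from 8 weeks of age. The 4 groups, WT NCD, MKO NCD, WT HFD and MKO HFD, held 3 biological replicates each. The promoter that drives the deletion, whether the WT mice carry any engineered allele, and whether a library came from 1 animal or from pooled tissue are not given in the sources used here. P-values measure the spread between these libraries.

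In a fat cell, noradrenaline binds beta-adrenergic receptors, which raise cyclic AMP and activate protein kinase A, and the phosphodiesterase encoded by Pde3b, which insulin activates, lowers cyclic AMP again. Protein kinase A phosphorylates the droplet coat and hormone-sensitive lipase (Lipe). Adipose triglyceride lipase (Pnpla2) takes the first fatty acid from triglyceride with its co-activator CGI-58 (Abhd5) and is held back by G0s2, hormone-sensitive lipase takes the next, and monoglyceride lipase (Mgll) releases the last. In rodents Adrb3 is the main beta-adrenergic receptor of white fat cells. Pnpla3 encodes a close relative of adipose triglyceride lipase that binds the same co-activator.

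Promoter sequences are shown for the pair of related lipase genes, of which Pnpla3 was called between the genotypes on both diets and Pnpla2 on neither, and for the co-activator they share. Each run is the 250 bases upstream of an annotated transcript start in RefSeq (GRCm38.p6, the build of the files, mm10), 5′ to 3′ on the strand of the gene, which is the plus strand in each. Capitals mark matches to the motifs searched on both strands. The Pnpla3 run lies at chr15:84167566-84167815, the Pnpla2 run at chr7:141454938-141455187 and the Abhd5 run at chr9:122351366-122351615.
Pnpla3: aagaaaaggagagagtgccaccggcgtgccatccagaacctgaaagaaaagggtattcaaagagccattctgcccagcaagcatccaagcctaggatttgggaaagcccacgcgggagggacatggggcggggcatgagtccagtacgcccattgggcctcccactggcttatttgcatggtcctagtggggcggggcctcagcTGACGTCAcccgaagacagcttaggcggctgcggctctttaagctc
Pnpla2: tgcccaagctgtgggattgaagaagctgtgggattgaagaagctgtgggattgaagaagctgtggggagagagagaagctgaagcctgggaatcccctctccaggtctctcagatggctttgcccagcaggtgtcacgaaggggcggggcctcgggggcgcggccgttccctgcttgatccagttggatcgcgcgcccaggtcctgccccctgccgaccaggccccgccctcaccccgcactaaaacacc
Abhd5: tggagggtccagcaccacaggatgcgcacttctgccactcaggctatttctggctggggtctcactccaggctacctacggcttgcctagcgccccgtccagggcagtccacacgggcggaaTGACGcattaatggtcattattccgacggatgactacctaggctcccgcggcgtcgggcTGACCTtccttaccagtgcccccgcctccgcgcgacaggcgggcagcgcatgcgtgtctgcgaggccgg
The motifs were the cyclic AMP response element TGACGTCA, its short form TGACG (which every full element also contains), the nuclear receptor unit AGGTCA, the PPAR element of 2 such units spaced by any 1 base, the glucocorticoid receptor short site TGTTCT and the C/EBP site TTGCGCAA. The Pnpla3 run holds the full cyclic AMP response element from -46 to -39 relative to the transcript start used. A match was found in 1.55% of 32851 windows of the same length. The gene is annotated from chr15:84167776, inside this run and within the element, so the position holds for the start used only. The Pnpla2 run holds none of the 6 motifs. The Abhd5 run holds TGACG from -128 to -124, as do 17.8% of windows in either orientation, and AGGTCA on the opposite strand (printed TGACCT) from -69 to -64, as do 14.0%. The table has windows for 7 of the 9 genes, and the runs of the other members are named only: G0s2 and Adrb1 hold TGACG, Mgll holds TGTTCT (16.1% of windows), and Lipe holds none. The shares for the PPAR element and the C/EBP site were 0.0335% and 0.164%, with no match in a member. A match describes letters only, and no binding was measured.

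Library totals were 52.9 to 72.7 M counts. All 10 adipocyte markers were detected in every library, with summed levels of 23868 to 53938 CPM, the counts scaled to library size. The WT NCD libraries stood apart in another marker list: 8 measured epididymis markers summed to 6354 to 6869.5 CPM there and to 19.9 CPM or less in the other 9 libraries. This difference coincides with the WT NCD group and cannot be told apart from it in any comparison with WT NCD. The library MKO NCD replicate 2 had no counts for 57.3% of all listed genes (15.6 to 38.3% in the rest), among them 702 genes with 100 counts or more in every other library. All values include it unless marked, and the larger moves without it are given beside the values. In whole tissue, fewer fat cells and less RNA per fat cell cannot be told apart. Bnip3 counts from whole tissue do not check a deletion limited to macrophages.

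Levels can be compared between genes only per transcript length, for which the authors' TPM values were used. In WT NCD the order of mean TPM was Lipe (1263 ± 174, SD, n = 3), Pnpla2 (1073 ± 298), Mgll (584 ± 36.4), Adrb3 (538 ± 132), G0s2 (426 ± 164), Pde3b (185 ± 40.9), Pnpla3 (132 ± 35.8), Abhd5 (94.8 ± 19.6) and Adrb1 (2.53 ± 0.841). The ranges of Lipe and Pnpla2 overlapped, as did those of Mgll with Adrb3, Adrb3 with G0s2, Pde3b with Pnpla3, and Pnpla3 with Abhd5. The transcripts of the enzymes of the first and the second step were thus at levels whose ranges overlapped in chow-fed WT fat, with the co-activator far below both. In WT HFD, Mgll (778 ± 77.9), Lipe (716 ± 97.1) and Pnpla2 (669.5 ± 117) formed the top of the order with overlapping ranges, and Adrb3 stood at rank 8 with 85.4 ± 54.2 TPM. In MKO NCD, Adrb3 held rank 3 (763 ± 186 TPM), and in MKO HFD rank 5 (466 ± 67.1 TPM). Adrb1 was last in all 4 groups, at 1.33 to 5.41 TPM on average.

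Adrb3 had the largest log2 fold changes of the 9 genes with HFD in WT and between the genotypes on HFD. The levels of replicates 1, 2 and 3, in this order here and below, were 856, 573 and 669 CPM for WT NCD and 1098, 879 and 1440.4 CPM for MKO NCD. They were 98.5, 55.5 and 204 CPM for WT HFD and 879, 714 and 575 CPM for MKO HFD. The 3 WT HFD libraries were below the other 9, and the MKO HFD range overlapped the WT NCD range. HFD against NCD in WT gave -2.55 on the log2 scale (SE 0.41, adjusted p = 0.00199, edgeR's quasi-likelihood F test, adjusted by Benjamini-Hochberg over all 20297 genes, here and below), a 5.87-fold lower level that stayed past the threshold of 0.05 in all 20 alternatives. On HFD, MKO was 6.07-fold higher than WT (log2 fold change 2.60, SE 0.41, adjusted p = 0.0119). This call was lost without WT HFD replicate 1 (adjusted p = 0.0501), MKO HFD replicate 1 (0.0659) or MKO HFD replicate 2 (0.0576), with log2 fold changes of 2.44 to 2.61.

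In MKO, HFD against NCD gave -0.66 for Adrb3 (SE 0.39, adjusted p = 0.425), with overlapping groups. MKO against WT on NCD gave 0.70 (SE 0.39, adjusted p = 0.361), with groups that did not overlap. Without MKO NCD replicate 2 these values were -0.81 (adjusted p = 0.361) and 0.86 (adjusted p = 0.295). The difference between the diet effects of the genotypes, tested as an interaction, was 1.90 (SE 0.55, adjusted p = 0.143), and 1.74 (adjusted p = 0.181) without that library. It passed the threshold with DESeq2 (1.93, adjusted p = 0.0144) and without WT HFD replicate 3 (2.53, adjusted p = 0.0446), the highest of the WT HFD libraries. Adrb3 lies at chr8:27225776-27230845 and overlaps the antisense gene Gm45470, which read 73.1 CPM in MKO NCD replicate 2 and 2.84 to 13.8 CPM elsewhere. The library kit keeps strand, but the strand setting of the counting is not given in the sources used here. Reads of the pair may therefore be mixed. The same limit holds for Lipe, which overlaps the antisense gene 4732471J01Rik (0.764 to 4.85 CPM). It also holds for Mgll, which overlaps the antisense gene Gm26588 (2.68 to 13.7 CPM).

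Adrb1, the other beta-adrenergic receptor measured here, was scarce. Levels were 2.68, 3.11 and 4.42 CPM for WT NCD, 5.36, 15.7 and 4.26 CPM for MKO NCD, 2.16, 1.47 and 2.17 CPM for WT HFD and 3.98, 5.12 and 9.26 CPM for MKO HFD. The high value in MKO NCD belongs to replicate 2, the library with many genes at 0, and the WT HFD libraries were below all others. HFD against NCD in WT gave -0.81 (SE 0.54, adjusted p = 0.342), and MKO against WT on HFD gave 1.66 (SE 0.55, adjusted p = 0.145). The latter passed the threshold with DESeq2 (adjusted p = 0.0208), with voom (0.0124) and with only the 6 libraries compared (0.0246). Without MKO NCD replicate 2 it passed at the same size (1.66, SE 0.35, adjusted p = 0.0237). HFD against NCD in MKO turned with that library, from -0.46 (SE 0.53, adjusted p = 0.729) to 0.35 without it (adjusted p = 0.692). MKO against WT on NCD was 1.31 (adjusted p = 0.206) with it and 0.50 (adjusted p = 0.512) without it.

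Pde3b, the gene of the phosphodiesterase through which insulin restrains lipolysis, fell in WT on HFD. Its levels were 321, 546 and 453 CPM for WT NCD, 594, 742 and 517 CPM for MKO NCD, 301, 198 and 197 CPM for WT HFD and 457, 418 and 378 CPM for MKO HFD. The WT HFD libraries lay below every other library. The change with HFD in WT was -0.92 (SE 0.23, adjusted p = 0.0173), lost without WT NCD replicate 2 (0.064), WT HFD replicate 2 (0.0799) or WT HFD replicate 3 (0.0674). MKO against WT on HFD was 0.85 (SE 0.23, adjusted p = 0.0695), and it passed the threshold without MKO NCD replicate 2 (adjusted p = 0.0451) or WT NCD replicate 1 (adjusted p = 0.0369). It also passed with DESeq2 (adjusted p = 0.00813), with voom (0.00795) and with only the 6 libraries compared (0.025). In MKO, HFD against NCD gave -0.56 (SE 0.23, adjusted p = 0.237, and -0.41 without MKO NCD replicate 2), without overlap between the groups. Transcripts of Adrb3, whose receptor raises cyclic AMP, and of Pde3b, whose enzyme lowers it, were both lower in WT fat on HFD. Only transcripts were measured.

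**Figure D1:**
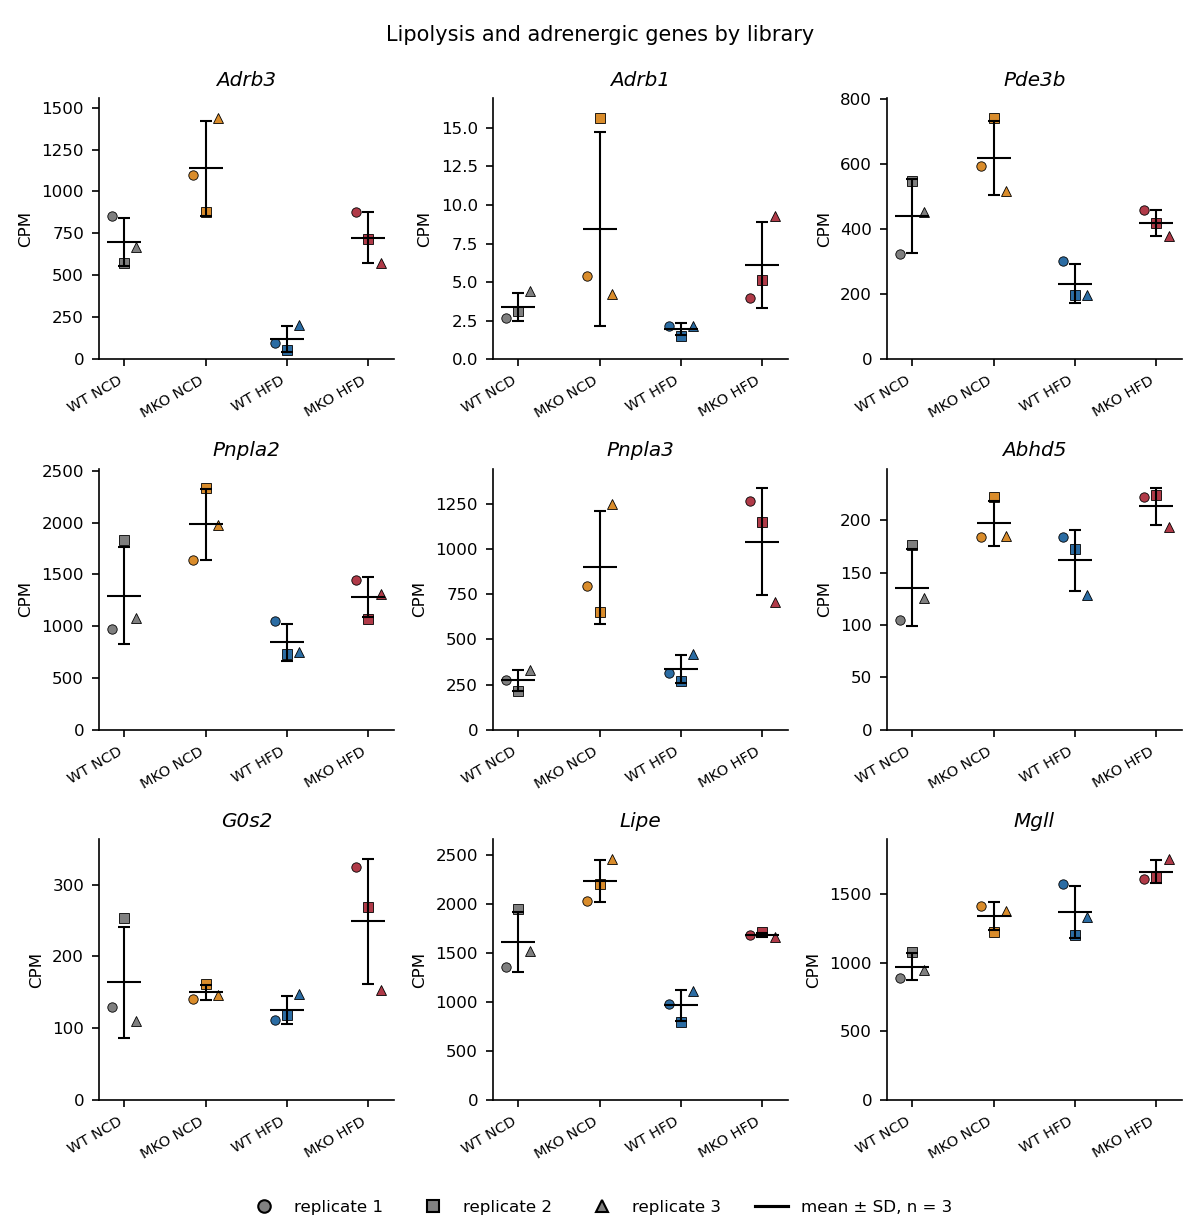
CPM of the 9 genes (vertical axes, each from 0) in each of the 12 libraries by group (horizontal axes). Symbols are replicates and bars are mean ± SD, n = 3. Adrb3 reads 55.5 to 204 CPM in WT HFD and 573 CPM or more in each other library, and Pnpla3 is 649.9 CPM or more in each MKO library and at most 419.7 CPM in each WT library.

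Pnpla2, the gene of the first lipase of the cascade, stood at 977, 1836 and 1076 CPM for WT NCD and 1641, 2335 and 1975 CPM for MKO NCD. Its levels were 1050.5, 728 and 755 CPM for WT HFD and 1450.4, 1069 and 1316 CPM for MKO HFD. WT NCD replicate 2 was high for its group, and the HFD groups did not overlap. No single comparison of 2 groups passed the threshold in edgeR with all libraries. HFD against NCD gave -0.62 in WT (SE 0.25, adjusted p = 0.117, and -0.28 without WT NCD replicate 2) and -0.63 in MKO (SE 0.25, adjusted p = 0.235, and -0.50 without MKO NCD replicate 2). With DESeq2 the WT value was called (-0.66, adjusted p = 0.0446). The diet effect averaged over genotypes passed the threshold (-0.63, SE 0.18, adjusted p = 0.0298), and was lost without MKO NCD replicate 3, WT HFD replicate 2, WT HFD replicate 3, MKO HFD replicate 2 or MKO HFD replicate 3 (adjusted p = 0.056 to 0.0787). MKO against WT gave 0.61 on NCD (SE 0.25, adjusted p = 0.202, and 0.48 without MKO NCD replicate 2) and 0.60 on HFD (SE 0.25, adjusted p = 0.279). On NCD it passed without WT NCD replicate 2 (0.95, adjusted p = 0.0468). The diet effects of the genotypes differed by -0.02 with an interval (1.96 SE each way) of -0.71 to 0.68.

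For Abhd5, the co-activator, none of the comparisons of 2 groups passed the threshold with all libraries. Levels were 105, 177 and 125 CPM for WT NCD, 184, 222 and 185 CPM for MKO NCD, 184, 172 and 129 CPM for WT HFD and 222, 224 and 193 CPM for MKO HFD. The diet groups overlapped in both genotypes, while the MKO libraries lay above the WT libraries of the same diet. HFD against NCD was 0.25 in WT (interval -0.13 to 0.63, adjusted p = 0.419) and 0.11 in MKO (interval -0.26 to 0.49, adjusted p = 0.824). The WT value was 0.08 without WT NCD replicate 1 and 0.49 without WT NCD replicate 2 (adjusted p = 0.092), and the MKO value 0.21 without MKO NCD replicate 2. MKO against WT was 0.54 on NCD (SE 0.19, adjusted p = 0.144) and 0.40 on HFD (SE 0.19, adjusted p = 0.369). On NCD it passed without WT NCD replicate 2 (0.78, adjusted p = 0.0447).

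G0s2, whose small protein inhibits adipose triglyceride lipase, had its highest values in MKO HFD. Levels were 130.0, 253 and 110.0 CPM for WT NCD, 141, 162 and 146 CPM for MKO NCD, 111, 118 and 147 CPM for WT HFD and 325, 268 and 153 CPM for MKO HFD. The HFD groups did not overlap by a narrow margin, with MKO HFD replicate 3 just above WT HFD replicate 3. MKO against WT on HFD was 0.99 (SE 0.32, adjusted p = 0.140), and passed the threshold without MKO HFD replicate 3 (1.24, adjusted p = 0.0487). It also passed with DESeq2 (adjusted p = 0.0343), with voom (0.0094) and with only the 6 libraries compared (0.0468). MKO against WT on NCD was -0.13 (SE 0.32, adjusted p = 0.850) and turned to 0.32 without WT NCD replicate 2 (adjusted p = 0.613). HFD against NCD was -0.39 in WT (SE 0.32, adjusted p = 0.457), turning to 0.07 without the same library, and 0.73 in MKO (SE 0.32, adjusted p = 0.275). The interaction was 1.12 (SE 0.45, adjusted p = 0.301).

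Pnpla3 was higher in MKO fat on both diets. WT libraries had 278, 215 and 329 CPM on NCD and 314, 269 and 419.7 CPM on HFD. MKO libraries had 796, 649.9 and 1251 CPM on NCD and 1269.6, 1149.8 and 705 CPM on HFD. No WT library reached the lowest MKO library. MKO was 3.28-fold above WT on NCD (log2 fold change 1.72, SE 0.30, adjusted p = 0.0113, and 1.91 with adjusted p = 0.00862 without MKO NCD replicate 2) and 3.11-fold above on HFD (1.64, SE 0.30, adjusted p = 0.0182). The call on NCD was kept in each fit that left out 1 library and lost in the fit of only the 6 libraries compared (0.0807). The call on HFD was lost without WT HFD replicate 1 (0.066), WT HFD replicate 2 (0.105), MKO HFD replicate 1 (0.0877) or MKO HFD replicate 2 (0.0879). Diet gave 0.29 in WT (interval -0.28 to 0.86) and 0.21 in MKO (interval -0.36 to 0.78, and 0.03 without MKO NCD replicate 2), and the interaction was -0.08 (interval -0.88 to 0.73).

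Lipe, the gene of hormone-sensitive lipase, fell with HFD in WT and was higher in MKO than in WT on HFD. Its levels were 1362, 1956 and 1523 CPM for WT NCD, 2034, 2209.6 and 2466 CPM for MKO NCD, 986, 799 and 1118 CPM for WT HFD and 1682, 1713 and 1668 CPM for MKO HFD. The WT HFD libraries were the lowest 3 and the MKO NCD libraries the highest 3 of the 12. HFD against NCD in WT was -0.74 (SE 0.16, adjusted p = 0.0102), and 0.0501 was its adjusted p without WT HFD replicate 2. MKO against WT on HFD was 0.80 (SE 0.16, adjusted p = 0.0257), a 1.74-fold difference that was lost without WT HFD replicate 1 (0.0698), WT HFD replicate 2 (0.137), MKO HFD replicate 1 (0.102) or MKO HFD replicate 2 (0.117). In MKO, HFD against NCD gave -0.41 (SE 0.16, adjusted p = 0.236), and on NCD, MKO against WT gave 0.47 (SE 0.16, adjusted p = 0.129), both without overlap.

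Mgll, the gene of monoglyceride lipase, which also breaks down an endocannabinoid, moved with diet in the opposite direction. Levels were 887, 1076 and 951 CPM for WT NCD, 1415, 1221 and 1379.7 CPM for MKO NCD, 1573, 1199.6 and 1331 CPM for WT HFD and 1611, 1623 and 1758 CPM for MKO HFD. The WT NCD libraries were the lowest 3 and the MKO HFD libraries the highest 3. HFD against NCD in WT was 0.49 (SE 0.13, adjusted p = 0.0233), lost without WT NCD replicate 1 (0.0884), WT NCD replicate 3 (0.0791), WT HFD replicate 1 (0.119) or WT HFD replicate 3 (0.0537). MKO against WT was 0.46 on NCD (SE 0.13, adjusted p = 0.0696) and 0.28 on HFD (SE 0.13, adjusted p = 0.336). With DESeq2 the NCD value was called (0.41, adjusted p = 0.015). HFD against NCD in MKO was 0.31 (SE 0.13, adjusted p = 0.251), without overlap.

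With HFD in WT, 3 of the 9 genes fell (Adrb3, Lipe and Pde3b) and 1 rose (Mgll), where 8.28% of all genes tested fell and 9.5% rose (17.8% in all). The median log2 fold change of the 9 was -0.62, against -0.09 over all genes. CPM ranges did not overlap for 4 lower genes and 1 higher gene, against 24.2% and 22.8% of all genes. In the same comparison 8 of 10 macrophage markers rose, and their sum went from 385 to 918 CPM in WT NCD to 2838 to 4351 CPM in WT HFD. Of the adipocyte markers 4 of 10 fell and 1 rose, with sums of 23868 to 42618 CPM in WT NCD and 29998 to 39435 CPM in WT HFD, and 5 of 8 fibroblast and progenitor markers rose. The part of these cell types in the changes of the 9 genes was not tested. The scaling to adipocyte markers given further on is a description only and does not cover macrophages or fibroblasts. With HFD in MKO, none of the 9 passed the threshold (2.01% of all genes did), 5 had an unadjusted p under 0.05 (G0s2, Lipe, Pde3b, Mgll and Pnpla2; 17.0% of all genes did), and DESeq2 called 0 as well (8.81% of its genes). Without MKO NCD replicate 2 the same F test gave these 5 genes an unadjusted p of 0.0523 (Lipe) to 0.118 (Pde3b). The median of the 9 was -0.41 with that library, against 0.06 over all genes. It was 0.025 without that library, against 0.00. Ranges did not overlap for 1 higher and 3 lower genes, against 15.1% and 9.17% of all.

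On NCD, MKO fat had 1 of the 9 genes higher, Pnpla3, where 4.35% of all genes were called and 2.22% were higher. The median of the 9 was 0.54, against -0.14 over all genes, and 5 ranges were higher without overlap (Adrb3, Pnpla3, Lipe, Mgll and Abhd5), against 9.63% of all genes. On HFD, 3 of the 9 were called higher in MKO (Adrb3, Pnpla3 and Lipe), where 3.57% of all genes were called and 1.34% were higher. The median was 0.85, against 0.00 over all genes. All 9 genes had every MKO HFD library above every WT HFD library, against 15.8% of all genes, and 5 genes were higher without overlap on both diets, against 3.61% of all genes. Set against adipocyte markers, as given further on, 3 of the 9 were higher in MKO HFD without overlap and 1 was lower without overlap. The share of all genes was not computed on that scale, so these counts have no background to be read against. Without MKO NCD replicate 2, 5 of the 9 were called on HFD, adding Adrb1 and Pde3b (7.32% of all genes called, 2.58% higher), and DESeq2 called 6, adding Adrb1, Pde3b and G0s2 (11.5% of its genes). Without WT HFD replicate 1, MKO HFD replicate 1 or MKO HFD replicate 2, 0 were called, and without WT HFD replicate 2, 1 was called.

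The macrophage markers were lower in MKO HFD than in WT HFD for 9 of 10, with sums of 431 to 1143 CPM in MKO HFD, and 4 of 8 fibroblast and progenitor markers were lower. Of the adipocyte markers 5 of 10 were higher in MKO HFD, with sums of 38685 to 46469 CPM. Brown fat markers, whose cells also express Adrb3, summed to 3.47 to 30.3 CPM in all 12 libraries, with Ucp1 and Elovl3 at 0 in each MKO NCD library. The highest sum was in MKO NCD replicate 2.

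No interaction passed the threshold among the 9 genes (0.261% of all genes did), Adrb3 and G0s2 had an unadjusted p under 0.05 (as did 13.1% of all genes), and DESeq2 called Adrb3 (6.54% of its genes). Averaged over genotypes, the genes lower on HFD were Adrb3 (-1.61, SE 0.28, adjusted p = 0.00282), Lipe (-0.57, SE 0.11, adjusted p = 0.00564), Pde3b (-0.74, SE 0.16, adjusted p = 0.00821) and Pnpla2, and Mgll was higher (0.40, SE 0.09, adjusted p = 0.0106). Of all genes 21.3% were called there, 10.2% lower and 11.0% higher. Averaged over diets, 6 of the 9 were higher in MKO, where 7.26% of all genes were called and 4.04% were higher. Pnpla3 (1.68, SE 0.21, adjusted p = 0.00183), Adrb3 (1.65, SE 0.28, adjusted p = 0.00748) and Lipe (0.64, SE 0.11, adjusted p = 0.00914) were called in every alternative. Pde3b (0.67, SE 0.16, adjusted p = 0.0311), Mgll (0.37, SE 0.09, adjusted p = 0.0341) and Adrb1 (1.49, SE 0.38, adjusted p = 0.0421, and 1.082 without MKO NCD replicate 2) were each lost in several. These 3 together dropped out without WT NCD replicate 3, WT HFD replicate 2, WT HFD replicate 3, MKO HFD replicate 1 or MKO HFD replicate 2. Leaving out any 1 library other than MKO NCD replicate 2 ended the call of at least 1 of them. Abhd5 (0.47, adjusted p = 0.063), Pnpla2 (0.61, adjusted p = 0.0648) and G0s2 (0.43, adjusted p = 0.296) were not called. DESeq2 called 8 of the 9 (15.4% of its genes), adding Pnpla2 (adjusted p = 0.0178) and Abhd5 (0.0282). These were also called without WT NCD replicate 2 (0.0143 for Pnpla2 and 0.0174 for Abhd5), and Abhd5 with voom (0.0435). Without MKO NCD replicate 2 the same members were called as with it in the 6 comparisons other than MKO against WT on HFD. The shares of all genes called were then 31.4% for HFD in WT, 1.65% for HFD in MKO, 4.76% for MKO on NCD, 0.884% for the interaction, 30.5% for diet and 11.0% for genotype on average.

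**Figure D2:**
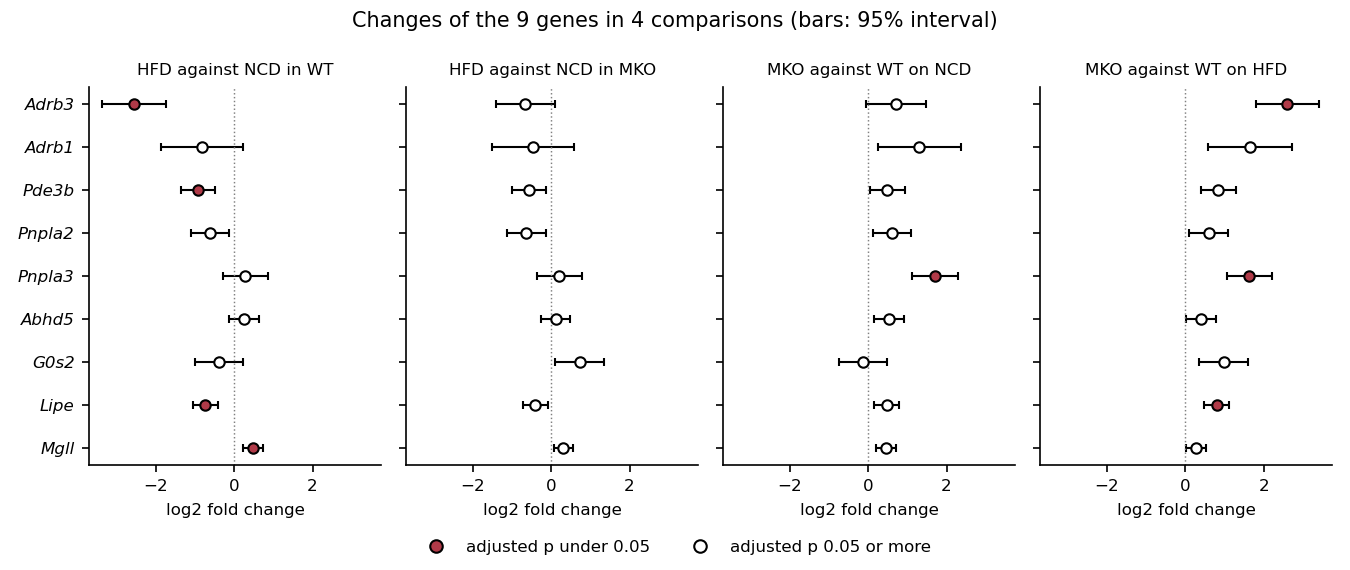
Log2 fold changes (horizontal axes) of the 9 genes (rows) in 4 comparisons, with bars of 1.96 SE each way and filled points for adjusted p under 0.05. In MKO against WT on HFD all 9 points lie above 0 and 3 are filled, and Adrb3 lies at -2.55 in WT on HFD and at 2.60 in MKO against WT on HFD.

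The TPM of each gene was also set against the geometric mean TPM of the 10 adipocyte markers in the same library, as a description with no test. The share of all genes without overlap was not computed on this scale. The mean log2 TPM of these markers was 10.99 ± 0.24 in WT NCD, 11.46 ± 0.12 in MKO NCD, 10.40 ± 0.25 in WT HFD and 11.13 ± 0.09 in MKO HFD. On this scale Adrb3 in WT still differed by -2.23 between HFD and NCD and by 1.90 between MKO and WT on HFD, without overlap in either. Lipe differed by -0.23 with HFD in WT without overlap, and by -0.07 between MKO and WT on HFD with overlap. The Pnpla2 differences were -0.07 and -0.28, both with overlap. Pde3b differed by -0.41 with HFD in WT without overlap and by -0.01 between the genotypes on HFD with overlap. On this scale the difference between the genotypes on HFD was near 0 for Lipe and Pde3b, and that of Adrb3 was not. The reference itself differed there, with 5 of the 10 markers called higher in MKO HFD. Among these was Plin1, also 1 of the genes most like Lipe over the libraries. The scale therefore cannot separate the number of fat cells from a change within them, which was not tested.

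Relative to adipocyte markers, Mgll was higher with HFD by 1.00 in WT and 0.58 in MKO, both without overlap, and lower in MKO than in WT on HFD by 0.60 (-0.60), without overlap. Between the genotypes on HFD, Pnpla3, Adrb1 (0.71) and Adrb3 were higher in MKO without overlap, Mgll was lower without overlap, and the other 5 overlapped. The estimates of Mgll, Abhd5 (-0.47), Pnpla2, Lipe and Pde3b were below 0 there, opposite to those in CPM. On NCD the estimates of Lipe (-0.19), Mgll (-0.18), Pde3b (-0.14) and Abhd5 (-0.07) were also opposite to those in CPM, all with overlap, and for HFD in WT that of G0s2 was (0.21, with overlap). Abhd5 was higher with HFD by 0.78 in WT and 0.38 in MKO, without overlap in either. Pnpla3 in MKO remained above WT without overlap, by 1.02 on NCD and 0.73 on HFD. Its difference with HFD in WT was 0.77 without overlap. G0s2 was 0.93 higher with HFD in MKO and differed by -0.69 between MKO and WT on NCD, both without overlap. Without MKO NCD replicate 2 the Pnpla3 difference on NCD was 1.31, still without overlap. The Adrb3 difference on NCD then went from 0.03 to 0.30, with overlap, and that with HFD in MKO from -0.36 with overlap to -0.63 without overlap. For Adrb1, HFD in MKO went from -0.04 to 0.44 and MKO against WT on NCD from 0.45 to -0.03, each with overlap. The Mgll difference with HFD in MKO went from 0.58 to 0.43 without that library, and on NCD the Lipe and Mgll differences became -0.07 and -0.03.

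**Figure D3:**
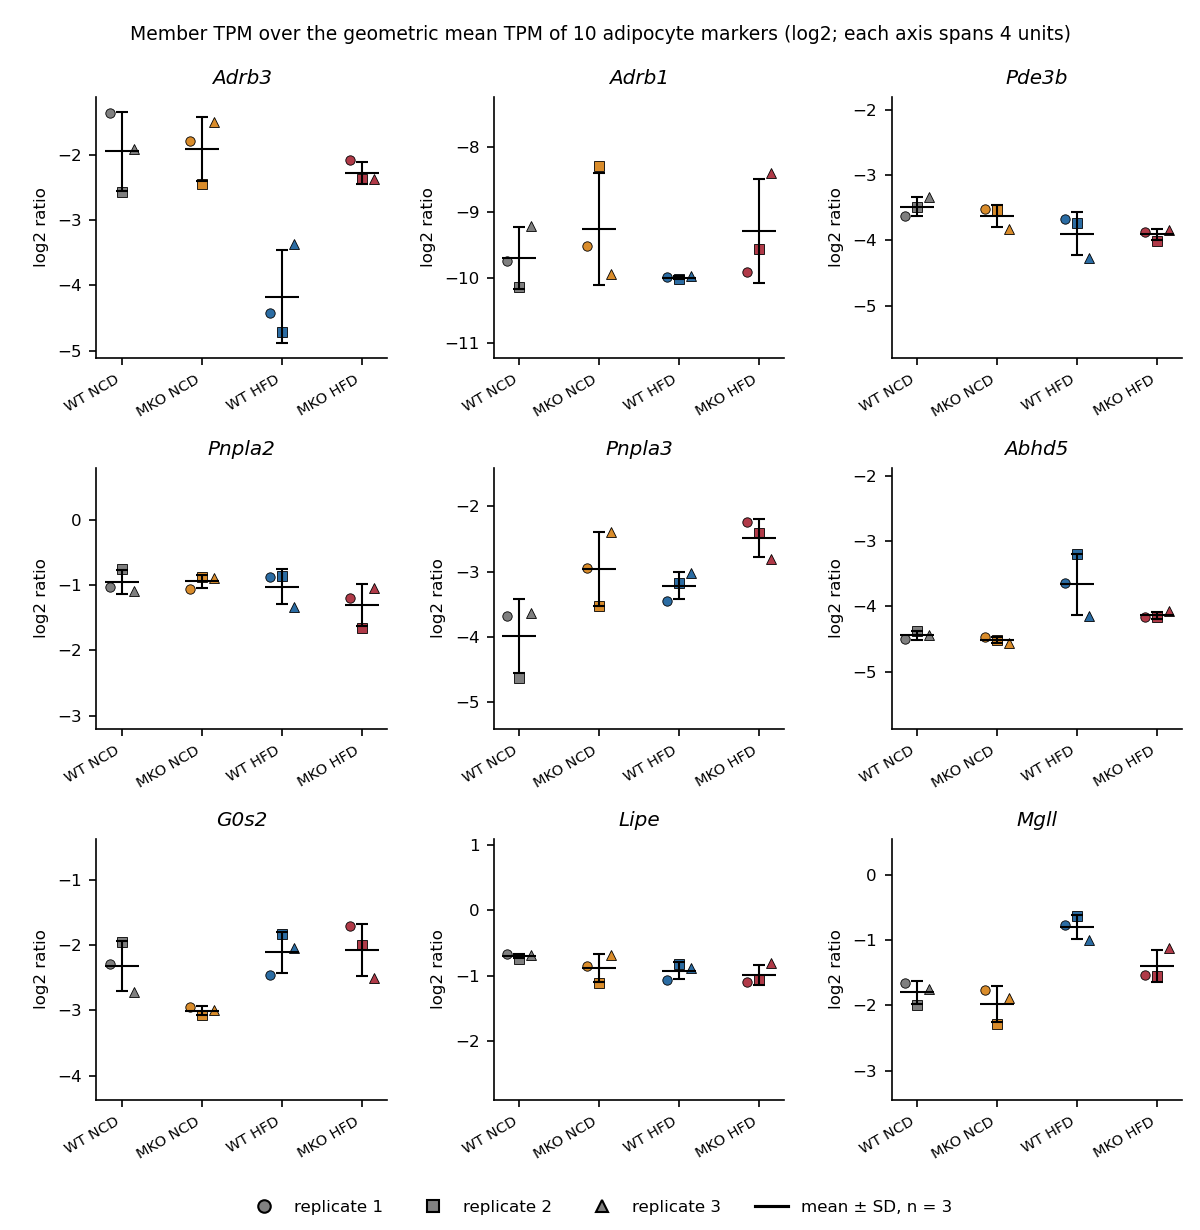
Log2 ratio of the TPM of each gene over the geometric mean TPM of 10 adipocyte markers (vertical axes, each spanning 4 units) by group. Symbols are replicates and bars are mean ± SD, n = 3. The Adrb3 ratio averages -4.18 in WT HFD against -1.95, -1.92 and -2.28 in WT NCD, MKO NCD and MKO HFD, and the Lipe ratio lies between -1.11 and -0.67 in all 12 libraries.

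Ratios of TPM between genes that act together were computed within each library. Abhd5 over Pnpla2, co-activator to lipase, was 0.0895 ± 0.00827 in WT NCD and 0.0844 ± 0.00863 in MKO NCD, and 0.162 ± 0.0303 in WT HFD and 0.143 ± 0.0293 in MKO HFD. All 6 HFD libraries lay above all 6 NCD libraries. G0s2 over Pnpla2, inhibitor to lipase, was 0.392 ± 0.0610 in WT NCD, 0.241 ± 0.0266 in MKO NCD, 0.486 ± 0.142 in WT HFD and 0.620 ± 0.223 in MKO HFD. The NCD groups did not overlap and the HFD groups did. Lipe over Pnpla2 averaged 1.06 to 1.26 in the 4 groups, and its ranges overlapped between all groups compared.

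Mgll over Lipe was 0.466 ± 0.0439 in WT NCD and 0.469 ± 0.0559 in MKO NCD, 1.10 ± 0.160 in WT HFD and 0.754 ± 0.0474 in MKO HFD. The groups on NCD overlapped, both HFD groups were above both NCD groups, and WT HFD was above MKO HFD without overlap. Adrb3 over Pde3b was 3.12 ± 1.51 in WT NCD, 3.47 ± 1.44 in MKO NCD, 0.989 ± 0.766 in WT HFD and 3.10 ± 0.337 in MKO HFD. Its WT HFD range, 0.506 to 1.87, ended just below that of WT NCD, which began at 1.89. Pnpla3 over Pnpla2 was 0.133 ± 0.0568 in WT NCD, 0.262 ± 0.0971 in MKO NCD, 0.228 ± 0.0751 in WT HFD and 0.462 ± 0.153 in MKO HFD, with overlap between the genotypes on each diet. Without MKO NCD replicate 2 the MKO NCD mean was 0.312 for Pnpla3 over Pnpla2, with no overlap with WT NCD, 4.15 for Adrb3 over Pde3b, 0.252 for G0s2 over Pnpla2, 0.482 for Mgll over Lipe and 0.0865 for Abhd5 over Pnpla2.

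**Figure D4:**
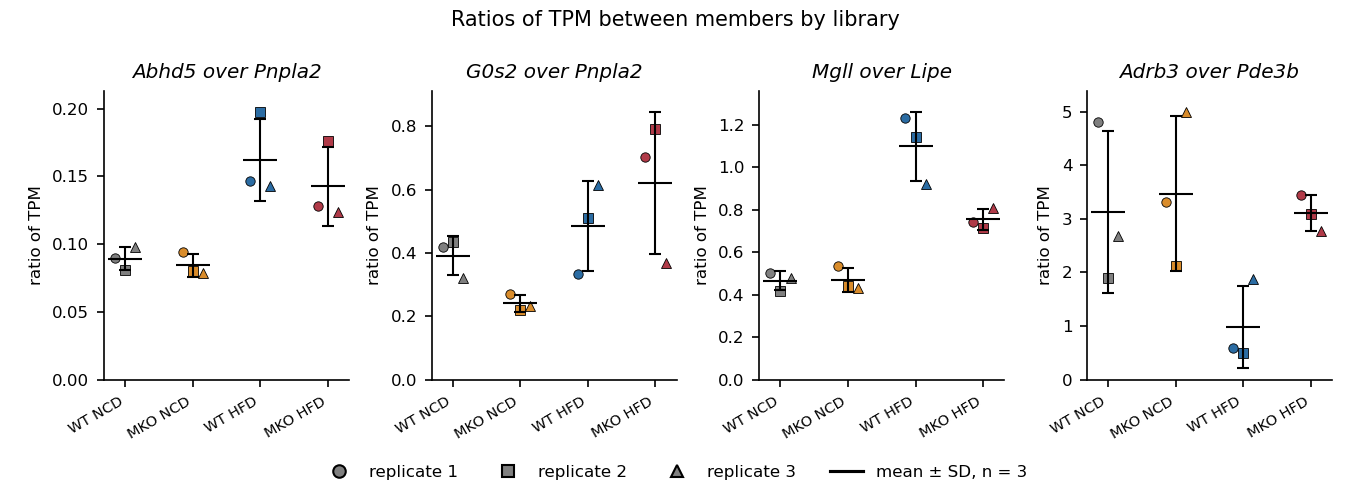
Ratios of TPM between 4 pairs of genes (vertical axes, each from 0) by group. Symbols are replicates and bars are mean ± SD, n = 3. Abhd5 over Pnpla2 is 0.0976 or less in each NCD library and 0.123 or more in each HFD library, and Mgll over Lipe is 0.919 or more in each WT HFD library and 0.806 or less in each other library.

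Other genes of the pathway were counted in 4 lists. Of 34 genes of cyclic AMP signalling, 5 rose with HFD in WT and none fell (Ptger3, Adcy7, Adcy3, Pde8a and Gnai2), where 17.8% of all genes were called, with a list median of 0.04 against -0.09 over all genes. The counts of this list were 8 higher and 3 lower without MKO NCD replicate 2, where 31.4% of all genes were called. Ptger3, the inhibitory prostaglandin E receptor that restrains lipolysis, read 18.5 ± 1.82 CPM in WT NCD, 74.4 ± 8.81 in MKO NCD, 71.5 ± 14.7 in WT HFD and 133 ± 27.5 in MKO HFD. It rose with HFD in WT (1.95, SE 0.19, adjusted p = 2.25e-04) and was higher in MKO on NCD (2.01, SE 0.19, adjusted p = 7.29e-04), and both calls were kept in each fit that left out 1 library. On NCD the only other gene of the list called was Prkaca, a catalytic subunit of protein kinase A (0.78, SE 0.12, adjusted p = 0.00645, 118 ± 5.10 CPM in WT and 203 ± 25.7 CPM in MKO). On HFD, Ptger3 was higher in MKO (0.89, SE 0.19, adjusted p = 0.0291). Adcy7, an adenylyl cyclase, was lower there (adjusted p = 0.0371, 115 ± 35.6 CPM in WT and 32.8 ± 14.3 CPM in MKO). Adcy7 averaged 28.9 CPM in WT NCD and 23.2 CPM in MKO NCD, and the macrophage marker sums were also highest in WT HFD. The part of macrophages in the Adcy7 differences was not tested. With HFD in MKO the 1 gene called was Ptger3 (adjusted p = 0.0483), a call lost without MKO NCD replicate 2 and in each of the other fits without 1 library but that without WT HFD replicate 1.

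Of 17 tested droplet partners, other lipid hydrolases and product handlers (Pnpla1 did not pass the filter), 8 rose and 3 fell with HFD in WT, where 17.8% of all genes were called, with a list median of 0.28. Those that rose include Fabp5, a fatty acid binding protein (2.50, SE 0.21, adjusted p = 1.02e-04, from 67.3 ± 12.5 to 381 ± 42.6 CPM), Lipa, the lysosomal acid lipase (2.98, SE 0.37, adjusted p = 5.23e-04) and Serpinf1, which encodes a secreted binding partner of adipose triglyceride lipase (2.74, SE 0.25, adjusted p = 1.32e-04). The genes that fell were the hydrolase Ces1d (-1.90, SE 0.30, adjusted p = 0.00181, from 1236 ± 466 to 331 ± 92.4 CPM), Plin1 (-0.63, SE 0.14, adjusted p = 0.0116) and Ces1f, of the same carboxylesterase family (-1.46, SE 0.42, adjusted p = 0.0345). The Plin1 call was lost in 1 of the 12 fits without 1 library and that of Ces1f in 4. Serpinf1 was the 1 gene of the list called with HFD in MKO (1.68, SE 0.24, adjusted p = 0.0100). On NCD, MKO had Fabp5 (1.62, SE 0.21, adjusted p = 0.00236) and Plin1 (0.68, SE 0.14, adjusted p = 0.0255) higher and Gk, glycerol kinase, lower (-1.78, SE 0.32, adjusted p = 0.0120). The Plin1 call on NCD was lost without MKO NCD replicate 2, MKO NCD replicate 3, WT NCD replicate 1 or WT NCD replicate 3. On HFD, Plin1, the droplet coat protein that holds Abhd5, and Ces1d were higher in MKO, and Lipa, Abhd12 and Tgm2 lower, where 3.57% of all genes were called. The calls of Ces1d (8), Tgm2 (7) and Abhd12 (4) were lost in the number given of the 12 fits without 1 library. Plin1 went from 583 ± 38.3 CPM in WT to 1054 ± 77.7 CPM in MKO (0.85, SE 0.14, adjusted p = 0.0129), and Lipa from 419 ± 138 to 98.1 ± 48.5 CPM (-2.10, SE 0.35, adjusted p = 0.0134). Lipa is also abundant in macrophages, whose markers were lower in the same libraries. Fabp5 was the 1 gene of the 4 lists with a called interaction (-1.78, SE 0.29, adjusted p = 0.0368), which was lost in 7 of the 12 fits without 1 library.

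Of 18 genes of insulin signalling and transcriptional control, 4 fell with HFD in WT (Irs1, Cebpa, Irs2 and Insr) and none rose, where 8.28% of all genes fell (median -0.17 against -0.09 over all genes). Irs1, the insulin receptor substrate, fell from 67.1 ± 0.808 to 29.5 ± 4.91 CPM (-1.19, SE 0.13, adjusted p = 3.69e-04). On HFD, 4 were higher in MKO (Irs1, Pparg, Rxra and Cebpa) and none lower, where 1.34% of all genes were higher, with a median of 0.46 against 0.00. The calls of Pparg (6), Rxra (9) and Cebpa (7) were lost in the number given of the 12 fits without 1 library. Irs1 was 58.6 ± 3.60 CPM there (0.99, SE 0.13, adjusted p = 0.00945). On NCD, Foxo1 and Rxra were higher in MKO, and with HFD in MKO none of the 18 was called. The list median with HFD in MKO was -0.32, against 0.06 over all genes. Without MKO NCD replicate 2 it was -0.21, against 0.00. In the list of catecholamine supply and clearance, Th and Dbh, which make catecholamines, did not pass the filter. With HFD in WT, Maoa, which degrades catecholamines, rose (1.36, SE 0.22, adjusted p = 0.00220), and Maob, a related oxidase, fell (-1.23, SE 0.17, adjusted p = 9.11e-04). On HFD, MKO had Maob (1.05, SE 0.17, adjusted p = 0.0121) and the transporter gene Slc22a3 (0.81, SE 0.13, adjusted p = 0.0120) higher. On HFD, leaving out MKO HFD replicate 1 or MKO HFD replicate 2 ended the calls of Ptger3, Adcy7, Plin1, Lipa, Irs1, Maob and Slc22a3 in MKO against WT. WT HFD replicate 2 ended the same calls except that of Irs1, and WT HFD replicate 1 those of Ptger3, Adcy7 and Plin1. With HFD in WT, the calls of Adcy3 (4 of the 12 fits without 1 library), Pde8a (5), Cebpa (1), Irs2 (3) and Insr (9) were lost in the number of fits given. On NCD, Foxo1 was lost without MKO NCD replicate 3 or WT NCD replicate 1, and Rxra without MKO NCD replicate 3.

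The genes whose pattern over the 12 libraries was most like that of a member were found by Pearson's r of log2 CPM among 9604 genes with a mean of at least 10 CPM. These values describe libraries that share groups, and carry no test. For Pnpla2 they were Adig (r = 0.98), Chchd6 (0.961) and Hibch (0.96), and for Lipe they were Palm, Lrig1 and Plin1 (0.972 each). Adig and Plin1 both encode proteins of fat cells. For Adrb3 they were Tmem88b (0.967), Klf15 (0.965) and Raver2 (0.965). Klf15, a transcription factor of fat cells, averaged 61.1 CPM in WT NCD, 76.0 in MKO NCD, 23.5 in WT HFD and 66.3 in MKO HFD, the same order of group means as Adrb3. For G0s2 they were Rex1bd (0.91), Gadd45gip1 (0.904) and Dtx2 (0.881). Among the 9 genes, r was 0.927 for Pnpla2 with Pde3b, 0.916 for Lipe with Adrb3 and 0.902 for Lipe with Pde3b, and 0.074 for Lipe with Mgll.

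In the authors' deposited table of MKO against WT, 7 of the 9 genes had an adjusted p under 0.05 on HFD, where 17.4% of all genes with an adjusted p did, and 2 on NCD, where 7.74% did. In the authors' deposited table the folds on HFD were 6.10 for Adrb3 (adjusted p = 5.38e-05), 3.17 for Adrb1 (1.32e-04), 3.12 for Pnpla3 (9.25e-11), 1.98 for G0s2 (6.09e-04), 1.80 for Pde3b (1.29e-04), 1.75 for Lipe (7.91e-07) and 1.51 for Pnpla2 (0.00901). The authors' deposited table gives Abhd5 1.32 (adjusted p = 0.0813) and Mgll 1.22 (adjusted p = 0.149) on HFD. On NCD the authors' deposited table has Pnpla3 at 3.13 (adjusted p = 1.28e-05) and Mgll at 1.32 (adjusted p = 0.0337) under 0.05.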

How the data were processed

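RNA of 12 libraries was sequenced after a stranded mRNA kit. The submitters' processing notes name HISAT2 2.1.0, StringTie 1.3.4d, Trimmomatic, bcl2fastq 2.20.0 and DESeq2, with the build mm10. The deposited table holds raw read counts per gene and library, per the file headers, and these counts were tested. The authors' TPM values, per the file headers, were used only to compare genes. The authors' deposited signed fold change of each genotype comparison is a score per gene, and it was read with their deposited adjusted p-value only where named.

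In R 4.3.3, edgeR 4.0.16 fitted 12 libraries by group in 1 model (TMM, filterByExpr, robust quasi-likelihood F test, Benjamini-Hochberg over 20297 genes, threshold 0.05). SE is the log2 fold change over the square root of F. CPM uses TMM library sizes. Alternative settings were upper-quartile and RLE size factors, no filter, 1 CPM in 3 libraries, DESeq2 1.42.0, limma 3.58.1 voom with sample weights, a replicate block, only the 6 libraries compared, and leaving out each library. Simulated counts with known changes in WT HFD were used to check the test. Of these changes, 33% of the 2-fold ones and 66% of the 4-fold ones were called, with 6 false calls among 19637 genes. A gene that was not called may therefore still have changed. Figures used Python 3.11.15 and matplotlib 3.10.9. No 2 libraries had identical columns.

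The genes named are the 9, up to 4 called genes with the smallest p per pathway list and comparison, and the 3 genes most like each of Pnpla2, Lipe, Adrb3 and G0s2, leaving out predicted genes. Genes that failed the filter, overlapping genes, Gnai2, and Plin1, Ces1d and Ces1f in comparisons where they ranked below the first 4, were named after their values were seen. Plin1, Fabp4, Cidec and Pparg stand in a pathway list and among the adipocyte markers. One gene of the catecholamine list is not reported here. The members, lists and tests were chosen with earlier results of these data known.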

Additional observations from a re-analysis of the deposited data

How the results depend on the processing

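The 63 estimates of the 9 genes in 7 comparisons were recomputed under 20 alternatives, which gave 1233 values. Of 369 values for called genes, 310 stayed past the threshold in the same direction and 0 changed sign. The number of the 9 genes called, over fits that left out 1 library, ranged from 2 to 4 for HFD in WT, 0 to 0 for HFD in MKO, 1 to 3 for MKO against WT on NCD, 0 to 5 on HFD, 0 to 1 for the interaction, 4 to 5 for diet averaged over genotypes and 3 to 7 for genotype averaged over diets. For MKO against WT on HFD the count was 3, and it was 6 with DESeq2, with voom and with only the 6 libraries compared. For MKO against WT on NCD it was 1, 2 with DESeq2 and 0 with only the 6 libraries. For the interaction it was 0, and 1 with DESeq2. Of all genes, edgeR with all 12 libraries called 3.57% for MKO against WT on HFD and 0.261% for the interaction. DESeq2 called 11.5% and 6.54% of its genes there. The shares with voom, with only the 6 libraries and for NCD with DESeq2 are not given. The counts of the 9 genes in those fits therefore have no background to be read against.

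Same-numbered libraries did not deviate together (r from -0.143 to 0.165 over 18 pairs, 3 of them over 0.1), so the replicate numbers were not taken to pair libraries. With the replicate block the count for genotype averaged over diets was 3 in place of 6. The Mgll call for HFD in WT was also lost with upper-quartile size factors (adjusted p = 0.0523), with the replicate block (0.0546) and with only the 6 libraries (0.0792), and the Lipe call for MKO against WT on HFD with the replicate block (0.059). Over the whole table the count of called genes without 1 library ranged from 1884 to 6789 for HFD in WT (3610 with all libraries), 75 to 480 for HFD in MKO (408), 391 to 1028 for MKO on NCD (882), 7 to 1580 for MKO on HFD (725), 2 to 288 for the interaction (53), 2836 to 6585 for diet (4322) and 614 to 2378 for genotype (1473) on average. Under the other alternatives the same counts ranged from 2819 to 6239, 41 to 1781, 53 to 2349, 262 to 3665, 12 to 1162, 3304 to 6883 and 834 to 3429, in that order.

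The estimates that changed sign were not called in any fit. The Pnpla2 interaction became 0.012 with RLE, 0.024 with upper-quartile factors, 0.01 with DESeq2 and 0.038 with voom, and 0.096 to 0.193 without WT NCD replicate 1 (0.171), WT NCD replicate 3 (0.116), MKO NCD replicate 2 (0.116), WT HFD replicate 1 or MKO HFD replicate 2. The Pnpla3 interaction became 0.072, 0.237, 0.119 and 0.138 without WT NCD replicate 2, MKO NCD replicate 3, WT HFD replicate 3 and MKO HFD replicate 3. The Abhd5 interaction became 0.036 without WT NCD replicate 1, and the Adrb1 interaction was -0.078 without MKO HFD replicate 3. HFD in MKO for Adrb1 became 0.126 with voom and 0.349 without MKO NCD replicate 2. For G0s2, HFD in WT became 0.066 and MKO against WT on NCD 0.321 without WT NCD replicate 2. At the other end of the fits without 1 library, the Pnpla2, Pnpla3, Abhd5 and Adrb1 interactions were -0.352, -0.265, -0.375 and 1.159, HFD in MKO for Adrb1 was -0.888, and the pair of G0s2 values were -0.624 and -0.353. Voom moved the median of all genes by 0.115 (log2) for MKO against WT on NCD. Beyond the alternatives' own construction, such as fewer libraries or genes, the cause of these changes was not tested.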
